A study of Bos taurus and Bubalus bubalis with 9 samples.

Results

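Short-span exonic circRNAs were analysed as a class in muscle of Xinyang buffalo and in muscle and adipose tissue of Nanyang cattle. A member was any circRNA typed as exonic in the deposited buffalo or cattle circRNA table whose back-splice junction, from start to end on the cattle genome UMD3.1, spans at most 1000 bp. The rule gave 1175 members among 24221 circRNAs in both tables, beside 20035 exonic circRNAs of longer span. The buffalo table lists 483 members and that of cattle lists 931, and 239 stand in both. Of the members of the buffalo table, 183 had no read in the buffalo libraries used, and those of them that are also in the cattle table were analysed through their cattle reads. In all, 1080 members had at least 1 read in a library used, and the values below are theirs; the remaining members were not analysed here.

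The study asked how the transcriptomes of the buffalo, labelled as having low intramuscular fat, and of the cattle, labelled high, differ. Each of the 3 groups, which are muscle of both species and adipose tissue of cattle, has 3 libraries from whole longissimus dorsi muscle or back subcutaneous fat. All animals were weaned at 3 months, castrated at 6 months, fattened from 18 months and killed at 30 months. The 2 species were kept on separate farms, so species and farm cannot be told apart, and fewer cells of a type and less RNA per cell cannot be told apart in whole tissue.

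A circRNA forms when the spliceosome joins the end of a downstream exon back to the start of an upstream exon instead of the other way round. The resulting closed loop has no free ends, resists exonucleases and is recognised in sequencing by the reads that cross the back-splice junction. A junction whose ends lie close together on the genome leaves room for a single exon or a few close exons. The span includes any intron between the ends, so it is not the length of the circle.

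The depth is low. Junction reads of all circRNAs numbered 4472 to 6122 per library in buffalo muscle, 15440 to 27141 in cattle muscle and 12042 to 21053 in cattle adipose. Values are in RPM, junction reads scaled to the size of the library, and 1 junction read was worth 0.0152 to 0.0167 RPM in buffalo and 0.0237 to 0.0280 RPM in cattle. A count of 0 over the 3 libraries of a group allows up to 3 reads, or 0.0158 RPM in buffalo muscle, 0.0259 in muscle of cattle and 0.0266 in cattle adipose, for counting error only. The tables of the species were made separately, so levels of buffalo and cattle are set side by side without a test. The labelled tissues were checked against marker genes. Buffalo muscle had 31524 to 43239 FPKM of ACTA1, the skeletal muscle actin. Of the other muscle markers, CKM, TNNT3, MYBPC1 and RYR1 had 680 to 9607 FPKM. NEB was listed at 0, and TTN and MYLPF had no mRNA entry under their symbols. Of 8 adipocyte markers, 6 were in the mRNA table: PLIN1 and CIDEC of the lipid droplet had 0.367 to 1.35 FPKM, FABP4 and PPARG 2.32 to 8.20, GPAM 9.08 to 25.4 and LPL, a lipase that muscle makes too, 92.0 to 129. In cattle, exonic and other circRNAs of MYBPC1, a myosin-binding protein, had 291, 384 and 407 reads in muscle and 0 in each adipose library. Those of PPARG, the adipogenic nuclear receptor, had 0, 0 and 3 reads in muscle and 17, 23 and 22 in adipose. NEB, RYR1, CKM and TNNT3 circRNAs also had reads in muscle and 0 in adipose. GPAM circRNAs had 1, 0 and 3 reads in muscle and 1, 19 and 7 in adipose. LPL circRNAs were not higher in adipose, with 1, 3 and 0 reads in muscle and 1, 1 and 0 in adipose. The other muscle and adipocyte markers had at most 1 circRNA read in a cattle library.

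Short-span circRNAs were a small part of the exonic circRNAs and a larger part of their reads. In buffalo muscle they made up 7.72%, 7.41% and 8.28% of the exonic circRNAs detected per library, and 10.1%, 11.1% and 10.9% of the exonic junction reads. In cattle muscle the corresponding shares were 6.55%, 5.89% and 7.14% of circRNAs and 8.58%, 6.96% and 8.47% of reads. In cattle adipose they were 6.15%, 5.76% and 5.74% of circRNAs and 8.60%, 7.44% and 7.03% of reads. The share of reads exceeded the share of circRNAs in each of the 9 libraries. The share of reads was 8.0% ± 0.907 (SD, n = 3) in cattle muscle and 7.69% ± 0.816 (SD, n = 3) in cattle adipose, a difference of 0.313 percentage points that lay within the spread between animals (exact permutation test, two-sided, p = 1, smallest p possible 0.1).

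A detected short-span circRNA carried 3.79 reads on average against 2.89 for an exonic circRNA of longer span (means of the 9 libraries). The difference was 0.900 ± 0.174 reads (SD, n = 9 libraries) and was above 0 in 9 of 9 libraries (exact sign-flip permutation test, two-sided, p = 0.00391, the smallest this test can give, adjusted p = 0.00586 over 6 such tests). By group it was 0.908 ± 0.278 reads in buffalo muscle, 0.845 ± 0.137 in muscle of cattle and 0.948 ± 0.130 in cattle adipose (SD, n = 3 each). By the study's methods both cattle tissues were taken from the same animals, so the 9 libraries are not all independent. This difference rests on a minority of well-read members: with the median in place of the mean it was 0.222 reads (exact permutation test, p = 0.5). Single-read circRNAs made up 46.9% of the short-span circRNAs of a library and 49.9% of the others, lower in 7 of 9 libraries, with a mean difference of -3.01 points (exact permutation test, p = 0.0391, adjusted p = 0.0469). With the cattle tissues averaged by replicate number it was -3.29 points and no longer passed (exact permutation test, p = 0.125, n = 6). Buffalo muscle 3 and cattle muscle 2 went the other way, with 63.8% against 61.3% and 45.7% against 44.5%. Leaving out any library other than these 2 ended this call, with exact permutation p-values of up to 0.0781.

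Short-span circRNAs were also found again in a larger share of cases in each group. Of those detected in a library, 27.1% were present in both other animals of the group, against 22.6% of the other exonic circRNAs, a mean difference of 4.48 points. The 3 libraries of a group share 1 set of circRNAs found in all of its animals, so these values rest on 3 sets and not on 9 independent ones, and no p is given. The gap was 7.98 ± 0.751 points in buffalo muscle, 2.89 ± 2.42 in muscle of cattle and 2.56 ± 1.24 in cattle adipose (SD, n = 3 each). Cattle muscle 3 had the narrowest, 28.4% against 28.0%. A circRNA with more reads has more chances to be found, and within bands of reads the mean difference was 2.16 points. Counted over a group, 38 of 300 short-span circRNAs of buffalo muscle (12.7%) had reads in all 3 animals against 7.98% of the others. In cattle muscle these were 93 of 654 (14.2%) against 12.2%, and in cattle adipose 67 of 555 (12.1%) against 10.2%. Most members were nonetheless rare. Of the 1080 with a read, 652 (60.4%) were seen in 1 library only and 421 had a single read in all.

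**Figure D1:**
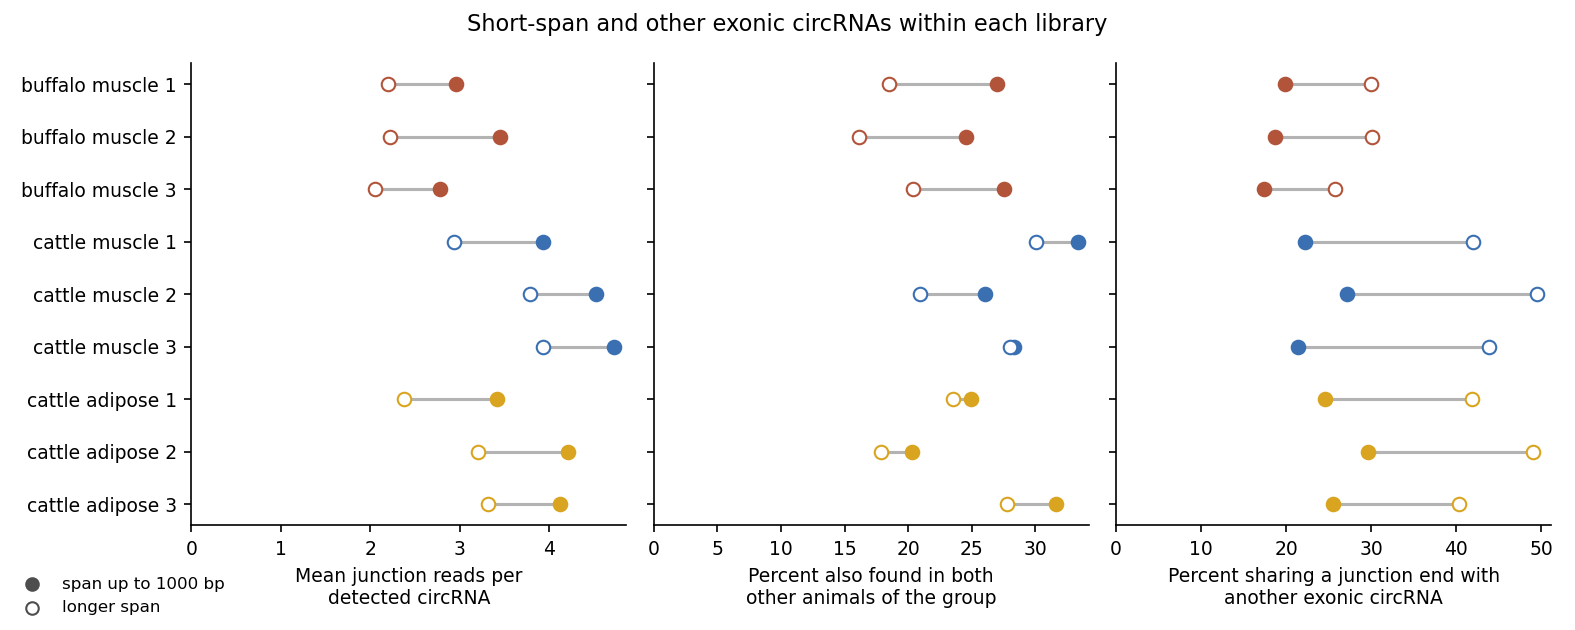
Each row is 1 library; filled points are exonic circRNAs spanning up to 1000 bp and open points those of longer span, for mean junction reads per detected circRNA (left), the percent also found in both other animals of the group (middle) and the percent sharing a junction end with another exonic circRNA of the library (right). The filled point is to the right of the open one in 9 of 9 libraries in the left and middle panels and to its left in 9 of 9 in the right panel.

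Short-span junctions stood alone on their gene more often than longer ones, a measure chosen after the data had been seen. In a library, 22.9% of them shared 1 of their ends with another detected exonic circRNA, compared with 39.2% of the longer ones. The difference was -16.2 ± 5.29 points (SD, n = 9), below 0 in 9 of 9 libraries (exact permutation test, p = 0.00391, adjusted p = 0.00586). Likewise 47.9% had a host gene with another detected exonic circRNA, against 64.7%, a difference of -16.8 ± 4.07 points (SD, n = 9) with 0 of 9 libraries higher (exact permutation test, p = 0.00391, adjusted p = 0.00586). The 9 libraries are not all independent and the measures were chosen late, so these p-values are given as description. With the cattle tissues averaged by replicate number the differences were -14.7 points for ends and -15.5 for hosts (exact permutation test, p = 0.0313 each, n = 6). The 1080 members came from 925 host genes, 830 of which gave 1 member, 79 gave 2 and 16 gave 3 or more. Over all libraries together, 627 of these hosts (67.8%) also had an exonic circRNA of longer span.

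The class was not uniform in span. Members spanned 68 to 1000 bp with a median of 578 bp. Those of up to 300 bp carried 2.62 ± 0.0310 reads per detected circRNA in buffalo muscle, 2.25 ± 0.302 in muscle of cattle and 2.49 ± 0.516 in cattle adipose (SD, n = 3 each). Only 5.17%, 6.93% and 5.13% of them were found in all 3 animals. Members over 300 and up to 600 bp carried 3.31 ± 0.469, 4.26 ± 0.801 and 3.53 ± 0.244 reads in the same order, and 15.8%, 16.3% and 13.2% were found in all 3 animals. Members over 600 and up to 1000 bp carried 3.02 ± 0.384, 5.23 ± 0.102 and 4.60 ± 0.572 reads. Beyond the limit the values went down again, to 2.03 ± 0.0705, 3.09 ± 0.482 and 2.72 ± 0.495 reads for spans over 10000 bp, of which 6.76%, 10.4% and 9.08% were in all 3 animals. Recurrence was lowest up to 300 bp in each group. The level was lowest there in both cattle tissues but not in buffalo muscle, where it was above that of each bin beyond 1000 bp. In buffalo muscle 1 host, described below, gave 12 of the 58 members up to 300 bp and 110 of their 207 reads. The level of this bin without that host was not tested. With a limit of 500 bp in place of 1000 bp, the difference in reads was -0.289 (exact permutation test, p = 0.105) and that in recurrence -2.70 points, and among members over 500 and up to 1000 bp alone they were 1.59 reads (exact permutation test, p = 0.00391) and 8.59 points. The last of these ranges was chosen after the data had been seen.

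**Figure D2:**
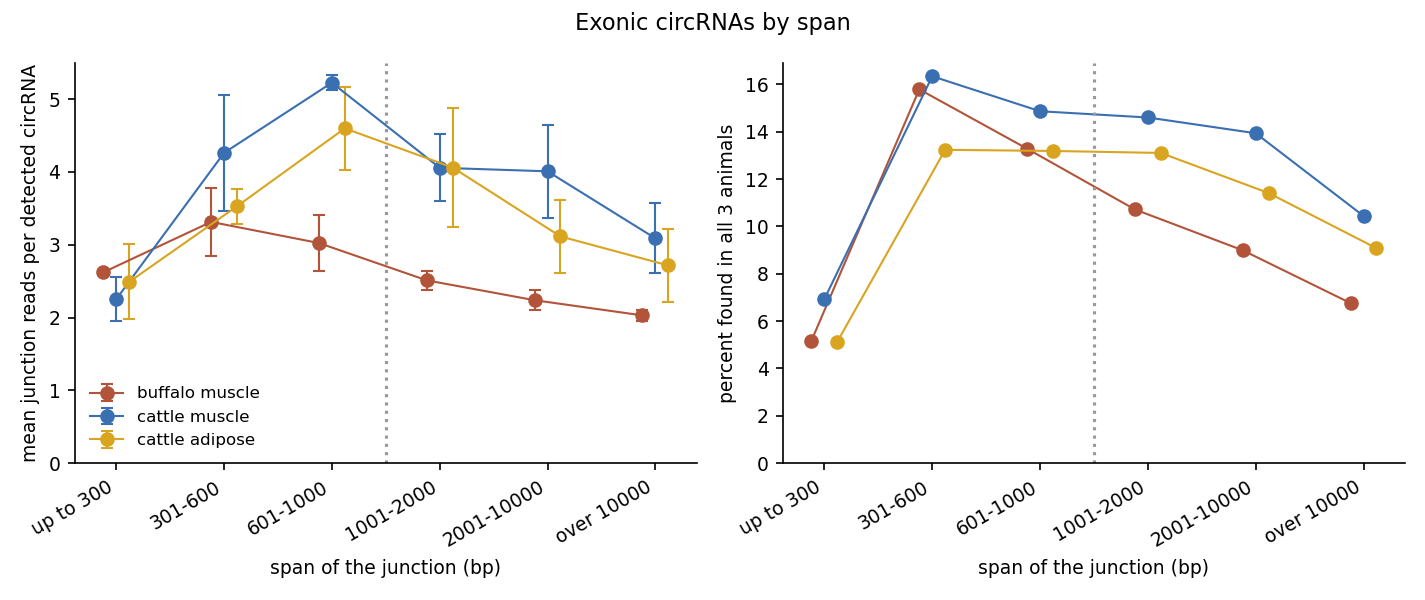
Exonic circRNAs by the span of their junction (bp, in 6 bins), with mean junction reads per detected circRNA and its SD over 3 libraries (left) and the percent of detected circRNAs found in all 3 animals (right), for buffalo muscle, cattle muscle and cattle adipose. The dotted line marks 1000 bp; up to 300 bp the percent found in all 3 animals is the lowest of the 6 bins in each group, and the reads per circRNA (2.25 to 2.62) are the lowest in both cattle tissues but not in buffalo muscle.

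Among circRNAs with reads in all 3 libraries of a group, the nearest on each side of the limit are given as values. Inside lay a circRNA of CACNA1D, a calcium channel subunit, on chromosome 22 from 47784462 to 47785462 (span 1000 bp), with 0.131 RPM in cattle muscle and 0.0981 in cattle adipose, and one of NIPBL, the cohesin loader, with a span of 996 bp and 0.134 and 0.106 RPM. Outside lay circRNAs of DDX50, an RNA helicase, with a span of 1004 bp and 0.133 and 0.197 RPM, and of VPS72, a histone chaperone, with a span of 1008 bp and 0.103 and 0.0265 RPM.

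A few members held a large part of the reads. The 5 most read gave 32.6% of all short-span reads in buffalo muscle, 30.5% in muscle of cattle and 21.6% in cattle adipose. The 5 most read of the other exonic circRNAs gave 6.20%, 9.68% and 3.54%. The short-span circRNAs detected numbered 300, 654 and 555, and the others 3908, 9817 and 9416. A fixed 5 is a larger part of the smaller class, so these shares do not show which class is more concentrated. At least 10 reads over the 3 libraries were reached by 24 members in buffalo muscle, 73 in muscle of cattle and 60 in cattle adipose. The most read are described next, with coordinates as the deposited tables give them on UMD3.1.

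The highest was the circRNA of MYL1, the fast skeletal muscle myosin light chain, on chromosome 2 from 98530615 to 98531320 (span 705 bp). It had 4.79, 6.29 and 5.46 RPM in cattle muscle 1 to 3, from 181, 266 and 195 reads, and 0.152, 0.110 and 0.317 RPM in buffalo muscle, from 10, 7 and 19 reads. It had 0 reads in each cattle adipose library. The 3 groups did not overlap.

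The circRNA of INSR, the insulin receptor, on chromosome 7 from 17401915 to 17402466 (span 551 bp), was read in all 9 libraries. It had 44, 55 and 51 reads in buffalo muscle, and 1.48, 1.51 and 2.24 RPM in cattle muscle against 0.896, 0.726 and 0.489 RPM in cattle adipose. As a share of the exonic junction reads of a library it took 1.22% ± 0.204 in buffalo muscle, 0.383% ± 0.0931 in muscle of cattle and 0.202% ± 0.0926 in cattle adipose (SD, n = 3 each). It led the buffalo members, and in RPM every cattle muscle value was above every cattle adipose value. As a share of exonic reads the cattle tissues overlapped, with 0.276% in cattle muscle 2 and 0.309% in cattle adipose 1.

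The circRNA of ADCY9, an adenylate cyclase that makes cAMP, on chromosome 25 from 3266443 to 3267297 (span 854 bp), was second in buffalo muscle. It had 0.608, 0.942 and 0.733 RPM in buffalo muscle, 0.556, 0.450 and 0.672 in cattle muscle and 0.0814, 0.0538 and 0.232 in cattle adipose. The RPM values of buffalo and cattle muscle overlapped, and both lay above adipose. As a share of the exonic junction reads, which are fewer in buffalo, it took 1.15% ± 0.159 in buffalo muscle, 0.126% ± 0.0414 in muscle of cattle and 0.0370% ± 0.0318 in cattle adipose (SD, n = 3 each), and on this scale the buffalo values lay above those of cattle muscle.

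Some circRNAs that were well read in cattle were rare or unread in buffalo muscle. That of SAMD4A, an RNA-binding translational repressor, on chromosome 10 from 67430995 to 67431513, had 1.11, 1.68 and 3.89 RPM in cattle muscle and 1.00, 2.2 and 1.03 in cattle adipose, but 2 reads in buffalo muscle in all. That of RNF111, the ubiquitin ligase Arkadia of TGF-β signalling, on chromosome 10 from 51344767 to 51345665, had 0.450, 0.331 and 0.364 RPM in cattle muscle, 1.76, 2.45 and 1.26 in cattle adipose and 0 reads in buffalo muscle. The tissues did not overlap for RNF111, and overlapped for SAMD4A.

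The circRNAs of TPST1, DEGS1 and ADGRL3 were higher in cattle adipose than in cattle muscle, though not the most read there. TPST1, a tyrosylprotein sulfotransferase, on chromosome 25 from 28371055 to 28372000, had 1.00, 2.18 and 0.798 RPM in adipose and 0.238, 0.284 and 0.644 in muscle. DEGS1, the desaturase of ceramide synthesis, on chromosome 16 from 28092129 to 28092871, had 0.543, 1.29 and 0.618 RPM in adipose and 0.370, 0.473 and 0.168 in muscle. ADGRL3, an adhesion G protein-coupled receptor, on chromosome 6 from 78991886 to 78992686, had 0.299, 0.376 and 0.669 RPM in adipose and 0, 0.0473 and 0.112 in muscle. Adipose was above muscle in each comparison of single libraries for these 3, and DEGS1 and ADGRL3 had 0 reads in buffalo muscle.

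**Figure D3:**
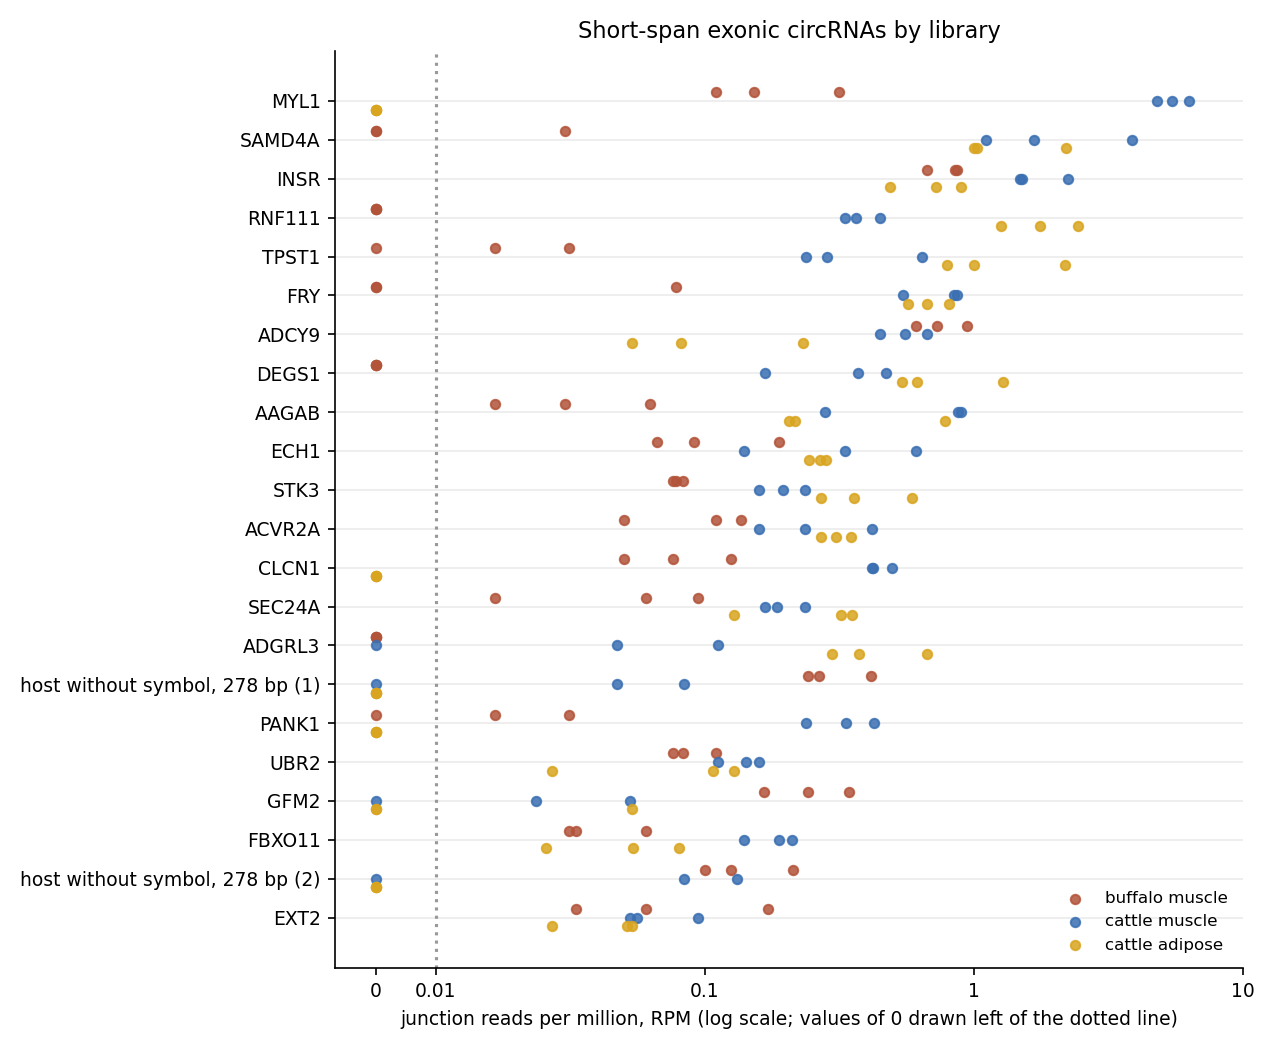
RPM of 22 short-span circRNAs in each of the 9 libraries (log axis, values of 0 drawn left of the dotted line), 1 point per library, coloured by buffalo muscle, cattle muscle and cattle adipose; they are taken from the most read in each group, those with reads in all 9 libraries and those with the largest tissue difference among the adipose-led and muscle-only. MYL1 lies between 4.79 and 6.29 RPM in cattle muscle and at 0 in cattle adipose, and GFM2 and the host without a symbol are highest in buffalo muscle.

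Only 10 members were read in all 9 libraries, namely those of INSR, ADCY9, AAGAB, ECH1, STK3, ACVR2A, SEC24A, UBR2, FBXO11 and EXT2, and 97 were read in all 3 groups. Beside INSR and ADCY9 these were mostly of modest level. ACVR2A, an activin and myostatin receptor, had 0.0989 ± 0.0445 RPM in buffalo muscle, 0.272 ± 0.134 in muscle of cattle and 0.310 ± 0.0390 in cattle adipose (SD, n = 3 each). STK3, a kinase of the Hippo pathway, had the steadiest count, 5 reads in each buffalo library (0.0793 ± 0.00371 RPM, SD, n = 3), with 0.197 ± 0.0389 RPM in cattle muscle and 0.408 ± 0.165 in cattle adipose. ECH1, an enzyme of fatty acid oxidation, had 0.115 ± 0.0644, 0.360 ± 0.236 and 0.265 ± 0.0197 RPM in the same order. AAGAB, a chaperone of clathrin adaptor assembly, had 33, 38 and 10 reads in muscle and 8, 29 and 8 in adipose. SEC24A, a cargo subunit of the COPII coat, ranged from 0.0167 to 0.353 RPM over the 9 libraries. UBR2, a ubiquitin ligase of the N-degron pathway, ranged from 0.0271 to 0.159 RPM, FBXO11, an F-box protein, from 0.0257 to 0.212, and EXT2, a heparan sulfate polymerase, from 0.0271 to 0.173. Outside these 10, FRY, a scaffold protein of the furry family, was even between the cattle tissues, at 0.753 ± 0.181 RPM in muscle and 0.682 ± 0.119 in adipose (SD, n = 3 each), and had 5 reads in a single buffalo library.

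A few hosts gave many members. The host ENSBTAG00000026986, which has no symbol in the tables and lies on chromosome 2 between 18067450 and 18314919, gave 36 members of 68 to 968 bp beside 61 longer exonic circRNAs. Of the 36, 19 were read in buffalo muscle and 23 in cattle muscle, with 6 in both. Their spans recur, with 4 members of 278 bp and 4 of 281 bp, and 16 span up to 300 bp. They had 53, 45 and 44 reads in buffalo muscle, 13, 23 and 20 in cattle muscle and 0 in each adipose library. The longer circRNAs of this host had 32, 23 and 12 reads in buffalo muscle and 25, 83 and 68 in cattle muscle, so the short ones held the larger number of its reads in each buffalo library and the smaller in each cattle muscle library, which was not tested. This host gave 110 of the 207 reads of members up to 300 bp in buffalo muscle and 24 of 311 in cattle muscle. Its leading member, from 18133664 to 18133942 (span 278 bp), had 16, 17 and 25 reads in buffalo muscle and 0, 2 and 3 in cattle muscle. Another of equal span, from 18125797 to 18126075, had 14, 8 and 6 reads in buffalo and 5, 0 and 3 in cattle muscle. Segments of like length can resemble each other in sequence, and how the caller treated reads that fit several places is not given in the sources used here, so the split among these members is uncertain.

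NEB, which encodes nebulin, the ruler of the thin filament, gave 12 members on chromosome 2, with 26 reads in buffalo muscle, 9 in muscle of cattle and 0 in cattle adipose. Its most read, from 44571081 to 44571380 (span 299 bp), had 3, 10 and 4 reads in buffalo muscle and 1, 1 and 0 in cattle muscle. NEB also has repeated segments, so the same limit on the split of reads holds. RYR1, the calcium release channel of the sarcoplasmic reticulum, gave 5 members on chromosome 18 with 5, 14 and 0 reads in the 3 groups, 11 of the cattle muscle reads on 1 junction from 48592200 to 48592699. FRYL, a relative of FRY, gave 3 members with 0, 9 and 4 reads. HUWE1, a large ubiquitin ligase, gave 3 members on the X chromosome with 1 read each, 1 per group. Leaving out the unnamed host and NEB, the difference in reads per circRNA was 0.901 and that in recurrence 4.56 points, near the values with them.

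Host genes were also counted by function, from lists chosen with earlier results of these data known. Genes were matched by symbol, so the 84 members with no symbol, 36 of them from the unnamed host, could count on no list. The counts of each list thus cover hosts with a symbol only. Of 32 sarcomere and muscle genes, 9 had a member (ATP2A1, CACNA2D1, FHL1, LDB3, MYBPC1, MYH7, MYOM1, NEB and RYR1). They gave 25 members against 195 longer exonic circRNAs, so 11.4% of their exonic circRNAs were short-span, beside 5.99% of all exonic circRNAs. NEB and RYR1 gave 17 of the 25, and without these hosts, left out after the data had been seen, 8 of the exonic circRNAs of the list were short-span and 129 longer (5.84%), near the share among all exonic circRNAs. Of 54 genes of the ubiquitin system 14 had a member, 20 in all (5.45% of their exonic circRNAs). Of 53 chromatin regulators 12 had 1 each (3.70%), among them NIPBL and SMARCA5, an ISWI remodelling ATPase that had 17 reads in cattle muscle and 7 in adipose. Of 50 kinase and insulin signalling genes 9 gave 10 members (4.12%), of 50 zinc finger and transcription factor genes 8 gave 8 (4.85%), and of 25 genes widely known as circRNA hosts 6 gave 6 (5.71%). The last include ZNF609, a myoblast regulator whose circRNA on chromosome 10 from 45609923 to 45610796 had only 3, 6 and 6 reads in buffalo muscle, cattle muscle and cattle adipose.

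The question of the cattle tissue comparison was which circRNAs differ between muscle and subcutaneous fat. Of the 931 members of the cattle table, 278 were read in both tissues (29.9%), 376 in muscle only (40.4%) and 277 in adipose only (29.8%). The other exonic circRNAs of cattle divided as 25.8%, 38.4% and 35.8%, a difference that was not tested. Most rested on too few reads for a test: 113 members had at least 2 reads in at least 3 of the 6 libraries and were tested among 1917 circRNAs of all types with limma on log2(RPM + 1), so a difference understates the change of low circRNAs. Of the 113, 10 passed this filter through muscle alone and 2 through adipose alone, as did 168 and 58 of the 1917. Of the 113, 6 had an adjusted p below 0.05, of which 5 were higher in muscle and 1 in adipose. Among all 1917 tested, 62 passed (3.23%), 3.08% higher in muscle and 0.156% higher in adipose. The median log2 difference was 0.02 over the tested members and 0.01 over all tested, and 27 members and 337 of all had an unadjusted p below 0.05. The groups did not overlap for 27 members (23.9% of 113, beside 23.3% of all tested), 17 with muscle above (15.3% of all tested) and 10 with adipose above (7.93% of all tested). The share of members whose groups did not overlap was thus near that of all circRNAs tested.

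The 5 members higher in muscle were those of MYL1, CLCN1, PANK1, ADCY9 and INSR. The first 3 had no adipose read and passed the filter only through muscle, where they are high, so their calls are given as a description and not as support for a bias of the class. MYL1 differed by 2.70 on the log2(RPM + 1) scale (SE 0.08, limma adjusted p = 9e-06), and its 642 muscle reads against 0 make it at least 207-fold higher in muscle, taking 3 reads over the adipose group as the floor. CLCN1, the chloride channel of the muscle membrane, on chromosome 4 from 107543781 to 107544376, had 16, 21 and 15 reads in muscle and 0 in each adipose library (log2 difference 0.53, SE 0.05, limma adjusted p = 0.0014), at least 16.8-fold higher. PANK1, a pantothenate kinase of coenzyme A synthesis, on chromosome 26 from 11304052 to 11304404, had 9, 18 and 12 reads in muscle and 0 in adipose (log2 difference 0.41, SE 0.06, limma adjusted p = 0.0154), at least 12.5-fold higher. PANK1 lost its call without cattle adipose 1 (adjusted p = 0.0577) or 3 (adjusted p = 0.0663). ADCY9 differed by 0.48 (SE 0.08, limma adjusted p = 0.0262) and kept its call in 5 of 13 alternatives. INSR differed by 0.68 (SE 0.13, limma adjusted p = 0.0402) and kept its call in 2 of 13, so both calls are weak. In buffalo muscle CLCN1 had 5, 8 and 3 reads and PANK1 0, 2 and 1.

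RNF111 was the 1 member called higher in adipose, by 1.01 on the log2 scale (log2 difference muscle minus adipose -1.01, SE 0.14, limma adjusted p = 0.0128). It lost its call with no filter on reads (adjusted p = 0.0890) and without cattle muscle 2 (adjusted p = 0.0707) or 3 (adjusted p = 0.0642). TPST1 (-0.71, SE 0.22, limma adjusted p = 0.156), ADGRL3 (-0.45, SE 0.10, limma adjusted p = 0.0676) and DEGS1 (-0.43, SE 0.16, limma adjusted p = 0.227) did not pass. ADGRL3 passed under 6 of 13 alternatives, among them limma with a pseudocount of 0.1 (adjusted p = 0.0154), and its adjusted p ranged from 0.00231 to 0.262. NFIX, a transcription factor of muscle development, on chromosome 7 from 13657460 to 13657991, had 0.370, 1.02 and 0.616 RPM in muscle and 0.136, 0.134 and 0.232 in adipose and did not pass either (0.50, SE 0.13, limma adjusted p = 0.112), but did with edgeR (adjusted p = 0.0284) and with limma at a pseudocount of 0.1 (adjusted p = 0.0468) or without cattle muscle 1 (adjusted p = 0.0389). By list, the ubiquitin genes had 1 of 2 tested members called, RNF111 (median log2 difference -0.47), and the kinase and insulin genes 1 of 3, INSR (median 0.07). Of all circRNAs tested 3.23% were called, and calls and medians over so few members give no result for a list. None of 4 chromatin, 2 transcription factor and 2 widely known hosts was called by limma (medians 0.02, 0.25 and 0.05). No member of a sarcomere list gene had the reads to be tested. MYL1, whose member was tested and called, is not on that list.

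The calls depend on the test and on single libraries. On the recovered reads, the edgeR quasi-likelihood test with TMM factors called 12 of the 113 members, 9 higher in muscle and 3 in adipose, where it called 8.5% of all tested, 7.09% higher in muscle and 1.41% higher in adipose. These 12 include 5 of the 6 limma calls, all but INSR (edgeR adjusted p = 0.0671). The others were TPST1, ADGRL3 and NFIX and, with 0 adipose reads each and so past the filter through muscle alone, SLC9A2, TP63, RINT1 and RHOBTB1, which are named after their values had been seen. Leaving out cattle muscle 2 or 3 left 0 of 86 or 87 tested members called. Leaving out cattle adipose 1, 2 or 3 left 3 of 95, 4 of 91 or 4 of 100. Without cattle muscle 1 there were 2 calls among 90 tested members, RNF111 and NFIX, of which NFIX was not called with all libraries. MYL1, CLCN1 and PANK1 have reads in the muscle libraries alone, so they fall below the filter of 3 libraries and are not tested once a muscle library is left out.

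**Figure D4:**
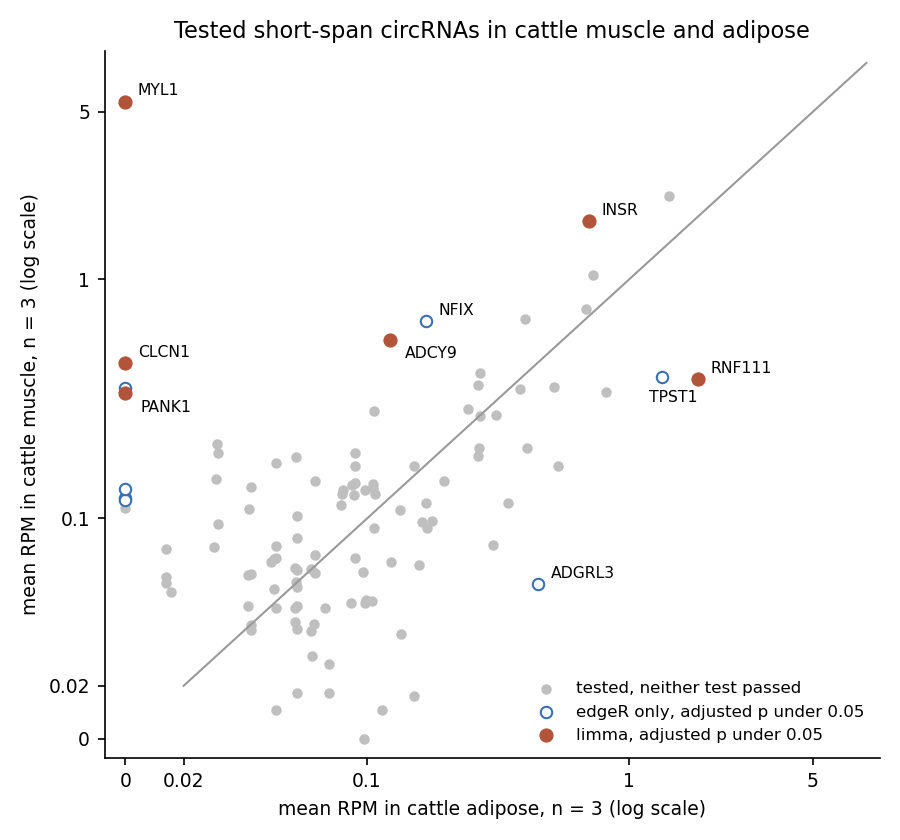
Mean RPM of the 113 tested short-span circRNAs in cattle adipose (x axis) and cattle muscle (y axis), n = 3 libraries each, both axes on a log scale with room for 0, and a line of equal values. Filled points passed limma at an adjusted p under 0.05 and open ones edgeR only; MYL1, CLCN1 and PANK1 lie at 0 on the adipose axis.

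Short-span circRNAs were compared between the species at identical junctions in muscle. Of 300 members read in buffalo muscle, 138 (46.0%) were also read in cattle muscle, beside 48.9% of the other exonic circRNAs. In the other direction the same 138 were 21.1% of the 654 members read in cattle muscle, beside 19.5%. Per library, 42.8% of the short-span and 41.6% of the other exonic circRNAs were found in muscle of the other species. The difference of 1.20 ± 4.01 points (SD, n = 6 muscle libraries), higher in 4 of 6, was within the spread between libraries (exact permutation test, p = 0.469). It was 4.15 ± 2.22 points in cattle muscle and -1.74 ± 3.02 in buffalo muscle (SD, n = 3 each), and whether these differ was not tested. The share found was greater among circRNAs with more reads. Of buffalo members with 1 read 30.0% were found in cattle muscle, of those with 2 to 9 reads 57.1%, and of the 24 with 10 or more 87.5%, each below the 38.8%, 58.3% and 90.8% of the other exonic circRNAs. Of cattle members the shares found in buffalo muscle were 7.78%, 21.2% and, of the 73 with 10 or more reads, 69.9%, beside 9.04%, 20.5% and 63.5% of the others. With a circRNA counted as detected from 2 reads on, the class was shared more in 6 of 6 libraries. The difference was then 6.51 points (exact permutation test, p = 0.0313, the smallest possible). Within bands of reads instead, the difference was -0.405 points. Each library was matched to muscle of the other species, and both directions count the same shared circRNAs. The 6 values are thus not independent, and no conclusion is drawn from these p-values.

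**Figure D5:**
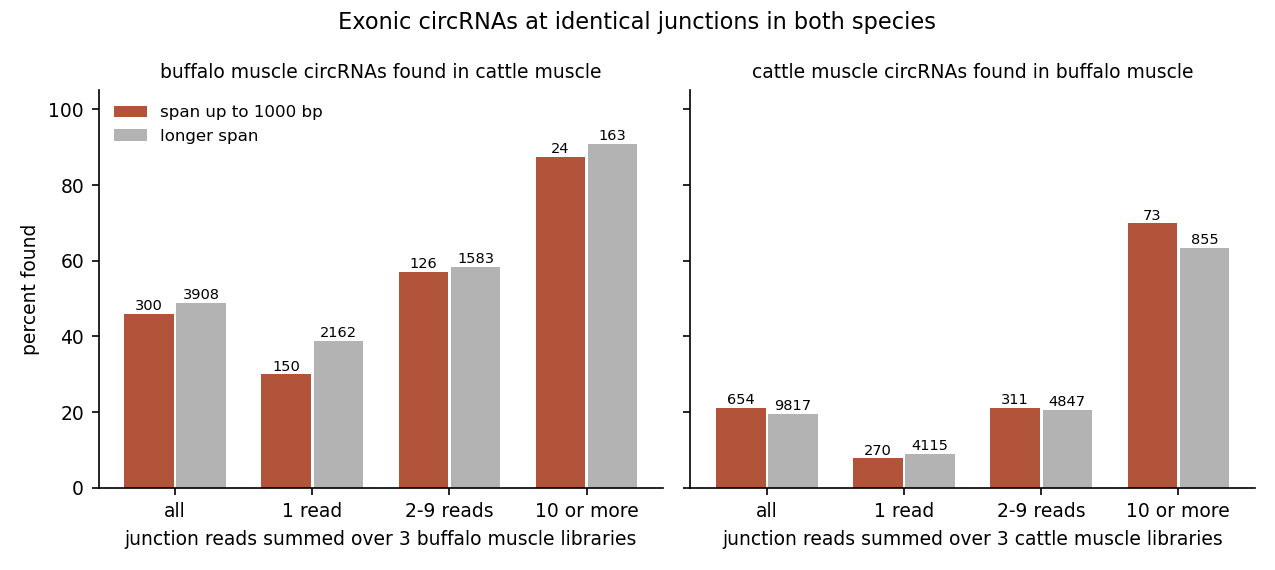
Percent of exonic circRNAs of buffalo muscle found at the same junction in cattle muscle (left) and of cattle muscle found in buffalo muscle (right), for spans up to 1000 bp and longer spans, over all circRNAs and by junction reads summed over 3 libraries; the number above each bar is the number of circRNAs. The short-span bars go from 30.0% to 87.5% on the left and from 7.78% to 69.9% on the right.

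Of the 138 shared members, 117 had the higher mean RPM in cattle, beside 1690 of the 1910 other shared exonic circRNAs. The median ratio of cattle to buffalo was 3.42 for the members, close to the 3.37 of the others. The libraries of the species differ in depth and in the share of reads at junctions, and the buffalo reads were aligned to the cattle genome, and their part in these ratios was not tested. Against this background 21 members were higher in buffalo muscle, and whether their share differs from that of the others was not tested. Some of the 21 rest on few reads, such as that of OTUD4, with 2 reads in buffalo muscle and 1 in cattle muscle. Beside ADCY9, the largest were the 278 bp member of the unnamed host (0.309 ± 0.0940 against 0.0438 ± 0.0421 RPM, SD, n = 3 each) and that of GFM2, a mitochondrial translation factor, on chromosome 20 from 6691873 to 6692376. The GFM2 circRNA had 16, 22 and 10 reads in buffalo muscle and 2, 1 and 0 in cattle muscle, which is 0.376% ± 0.0858 and 0.00664% ± 0.00807 of the exonic reads (SD, n = 3 each). All 3 buffalo libraries were above the 3 of cattle.

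The level of the host mRNA was taken from the deposited mRNA table, which covers buffalo muscle and no cattle library. There, hosts of detected short-span circRNAs had a median of 13.3, 14.3 and 12.8 FPKM in libraries 1 to 3, and hosts of the other exonic circRNAs 14.5, 14.1 and 13.1. The leading members came from hosts of very different level. MYL1 mRNA had 2598, 2131 and 2620 FPKM with 10, 7 and 19 reads of its circRNA, INSR mRNA 37.6, 34.9 and 30.0 FPKM with 44, 55 and 51, and GFM2 mRNA 16.9, 16.9 and 14.9 FPKM with 16, 22 and 10. ADCY9 mRNA had 80.1, 68.3 and 66.4 FPKM. Hosts with at least 1 FPKM made up 85.8%, 91.0% and 87.7% for short-span circRNAs and 97.3%, 96.5% and 96.7% for the others. Without NEB and the unnamed host, both below 1 FPKM in the mRNA table, the shares were 98.4%, 97.9% and 97.6% against 98.5%, 97.6% and 98.0%. NEB is listed at 0 in all 3 libraries although its circRNAs were read in each, so a value of 0 in that table does not show that the gene is silent.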

How the data were processed

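RNA of 9 libraries was analysed (muscle of both species and adipose of cattle, 3 libraries each), grouped by the sample labels. The authors extracted RNA with TRIzol, trimmed reads with Trim Galore, aligned both species to UMD3.1 with STAR and quantified transcripts with Cufflinks 2.2.1 and Cuffdiff. The circRNA caller is not given in the sources used here. The circRNA tables deposited by the authors hold RPM per junction. In each column 100% of values were whole multiples of 1 read (within 0.01 reads), so reads were recovered. The deposited mRNA table gives FPKM and served for hosts and markers only; the lncRNA table was not used. The deposited tables also have 9 columns of no sample here, which were not used.

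Span is end minus start. A circRNA was counted as detected from 1 read. Short-span and other exonic circRNAs were compared within each library by exact sign-flip permutation tests over libraries, two-sided, with Benjamini-Hochberg adjustment over 6 tests. Cattle tissues were compared with limma 3.58.1 (R 4.3.3) on log2(RPM + 1), for circRNAs with at least 2 reads in at least 3 libraries, adjusted over all of them (threshold 0.05). The script was tested on simulated data. edgeR 4.0.16 and DESeq2 1.42.0 on recovered reads, a pseudocount of 0.1, other filters and span limits, a replicate block and leaving out each library were alternatives. The 3 libraries of a group were taken as the 3 animals per species that the growth protocol in the labels gives. No label ties a library to an animal, so p-values measure the spread between these libraries.

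The members, gene lists, tests and naming rule were chosen with earlier results of these data known. The rule names the 6 highest members per group, those called between tissues (filled to 4 per direction where fewer than 6 were called), those in all 9 libraries, the 4 hosts with a symbol and the most members, 2 circRNAs on each side of the limit and 2 members per gene list. Of these hosts, FRYL and HUWE1 gave 3 members each, a tie with further hosts, such as SYNE1 and UTRN, that are not described. The host without a symbol, as a whole, and the circRNAs that edgeR alone called outside the rule were added after their values had been seen. A circRNA that the rule names is not reported here.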

Additional observations from a re-analysis of the deposited data

How the results depend on the processing

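The limits of these results are depth and the choice of span. In a library, 31.6% to 63.8% of detected short-span circRNAs rest on a single read. With a limit of 500 bp the class made up 3.1%, 2.58% and 2.03% of the exonic circRNAs and 3.36%, 2.02% and 1.90% of the exonic reads in buffalo muscle, cattle muscle and cattle adipose. With 2000 bp these were 15.7%, 13.7% and 12.9%, and 19.6%, 16.1% and 17.1%. With at least 2 reads required, the class was 8.49% of exonic circRNAs and 11.9% of reads in buffalo muscle and 6.28% of circRNAs in cattle adipose.

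At 500 bp the difference from longer spans became -0.289 reads per circRNA, -0.975 points of single-read circRNAs, -2.70 points found in both other animals and -3.57 points found in the other species. The median gave 0.222 reads, and members over 500 bp gave -4.22 points of single-read circRNAs. Sharing with the other species differed by 6.51 points from 2 reads on and by -0.405 within bands of reads. Leaving out each library gave -3.70 to -2.15 points of single-read circRNAs, and for the cattle muscle minus adipose share of reads -0.0178 to 0.836 points, which at 2000 bp was -1.0. The sharing of junction ends and hosts kept its direction and its side of the threshold under each alternative run. The share of single-read circRNAs has no value when 2 reads are required. The cause of these changes was not tested.

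The members called between the cattle tissues numbered 12 of 113 with edgeR and TMM factors and 3 of 931 with no filter. They numbered 1 of 36 at 500 bp and 12 of 247 at 2000 bp. With 1 library left out, 0 to 4 of 86 to 100 were called. edgeR without TMM factors called 6 of 113 and DESeq2 7 of 113. The number tested changes between settings, so these counts are not comparable. The share called among all circRNAs is given only for the main setting (3.23%) and for edgeR with TMM factors (8.5%). For the named circRNAs, 255 alternative values kept their direction and side of the threshold, 24 lost the call, 11 gained one and 5 changed sign, each among differences that had not passed. With 1 library left out, ECH1 ranged from -0.0386 to 0.210 (below 0 without cattle muscle 1), ACVR2A from -0.130 to 0.0170 (above 0 without cattle muscle 1), NIPBL from -0.0131 to 0.0680 (below 0 without cattle muscle 2) and ZNF609 from -0.0192 to 0.0205 (above 0 without cattle muscle 1 or 2). MYL1 and CLCN1 kept their call in each of the 10 alternatives that tested them. INSR kept its call in 2 of 13 alternatives (adjusted p 0.0144 to 0.182) and ADCY9 in 5 of 13 (0.00677 to 0.121).

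Equal replicate numbers in cattle muscle and adipose had correlations of deviations of 0.238, 0.169 and -0.0156 over 1917 circRNAs. Numbers 1 and 2 correlated best with their own number. Muscle 1 with adipose 2 gave -0.219 and muscle 2 with adipose 1 gave -0.194. These values do not settle whether equal numbers mark the same animal. No label says so, and the main test was therefore not paired, although both tissues came from the same animals. With the replicate number as a block, 7 of 113 members were called, 5 higher in muscle and 2 in adipose. The added one was ADGRL3 (limma adjusted p = 0.0150). With the cattle tissues averaged by number as a replicate block the single-read difference was -3.29 points (exact permutation test, p = 0.125, n = 6). No paired analysis was possible for sharing between species because it uses muscle libraries only.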
